A study of Mus musculus with 14 samples.

Results

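Whole lungs of mice lacking either of 2 tetraspanins, CD151 or CD9, were taken as 1 group and set against lungs of wild type mice. The members were chosen by sample title: all 10 arrays titled CD151KO or CD9KO, 5 of each genotype, out of 14 in the series, with both genotypes given equal weight. The reference was the 4 arrays titled wild type, numbered 1, 3, 4 and 5. All 14 samples were total lung RNA from mice of C57BL/6 strain background, 20 weeks old, with no treatment named, each measured on 1 Affymetrix array. CD151KO mice lacked CD151 and kept CD9, CD9KO mice lacked CD9 and kept CD151, wild type mice had both proteins, and no group lacked both. The sources used here do not give how either allele was made, whether any mice were littermates or whether each array was a separate animal. The p-values therefore measure only how these samples vary, which may be technical.

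Tetraspanins are small proteins that cross the membrane 4 times and gather other membrane proteins, such as integrins and proteases, into patches. CD151 binds the integrins that hold epithelial cells to laminin in the basement membrane, and CD9 is found on many cell types, where it takes part in adhesion, membrane fusion and the shedding of growth factors. Related tetraspanins share partners, and the pooled comparison asked which lung transcripts lay at another level when either protein was missing.

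Levels are the deposited signals, on a linear scale. Differences are in log2(signal + 16) and understate changes of weak genes. A gene passed where the adjusted p from limma (a linear model over all genes, Benjamini-Hochberg adjusted) was under 0.05. "Rose" and "fell" are used only of genes that passed. Since whole lungs were measured, fewer cells of a type and less RNA per cell cannot be told apart. Of 18193 genes, 12985 passed the filter on low signal and were tested.

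Both targeted genes were low where their genotype said they should be. Cd151 signals were 5832, 5115, 4991 and 5379.6 on the wild type arrays, 1027 to 1072 on the CD151KO arrays and 4867 to 5215 on the CD9KO arrays. Cd9 signals were 8105, 8116, 7998 and 8163 on the wild type arrays, 7861 to 8501 on the CD151KO arrays and 614 to 749 on the CD9KO arrays. Each gene was thus low in 1 genotype only, and the pooled log2 differences of -1.20 and -1.77 average a deep loss with almost none. Markers of the lung were all present: the lowest signals on any array were 28308 for Sftpc and 8063 for Sftpb (surfactant proteins of alveolar type 2 cells), 21086 for Ager and 14850.0 for Hopx (type 1 cells), 28414 for Scgb1a1 and 19160.0 for Cyp2f2 (club cells), 365 for Foxj1 (ciliated cells), and 1784 for Pecam1 and 2419 for Cdh5 (endothelium).

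Some array measures moved with the groups. BioB, BioC, BioD and Cre are control transcripts added to every hybridization in the same amounts. BioB gave 332 ± 16.4 on the 4 wild type arrays and 399.5 ± 33.9 on the 10 knockout arrays (SD), with all 10 above all 4. The ratio of knockout to wild type means was 1.20 for BioB (exact two-sided permutation p = 0.002, the smallest that 1001 splits can give; 0.0133 adjusted over 10 array measures), 1.14 for BioC and BioD (p = 0.004 each; 0.0133 adjusted) and 1.13 for Cre (p = 0.00599; 0.0150 adjusted). On the log2 scale, these controls were 0.17 to 0.25 higher on the knockout arrays, while the medians of the arrays, 84.1 to 86.2, had a ratio of 0.995. The 3' to 5' ratios, a sign of RNA quality, were 0.851 ± 0.0120 and 0.862 ± 0.0181 for Gapdh (exact permutation p = 0.274) and 1.42 ± 0.0309 and 1.44 ± 0.0202 for Actb (p = 0.180). Wild type array 1 and CD151KO array 1 stood apart on the first principal component (37.5% of the variance), at -18.5 and -17.2 against -8.01 to 13.4 for the others. All CD9KO arrays (7.23 to 13.4) lay above all wild type and CD151KO arrays (highest 2.47) on it. Within wild type and within CD151KO it climbed with the array number. On the second component (12.7%), all CD151KO arrays (-8.22 to -1.43) lay below all others (lowest -0.916). The part of these differences in the gene results was not tested.

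**Figure D1:**
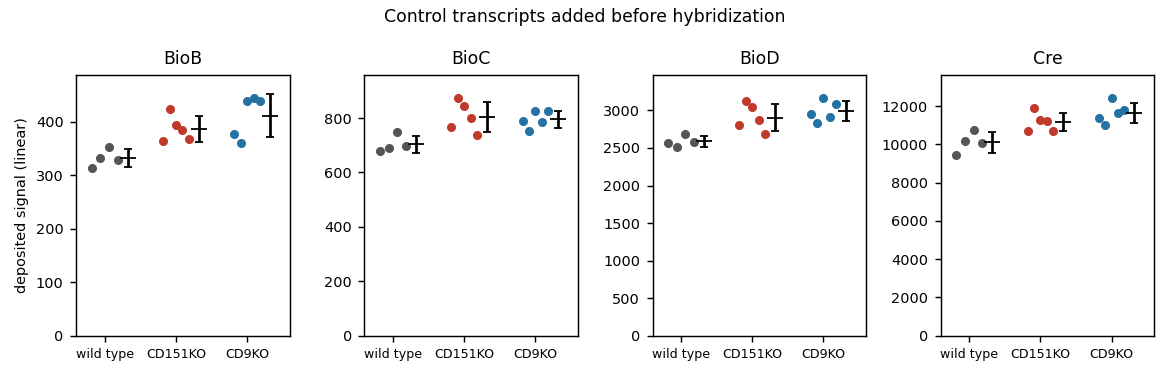
Deposited linear signal of 4 control transcripts (mean of 2 or 3 probe sets each) on every array, by genotype; black marks are the mean and SD of 4 wild type, 5 CD151KO and 5 CD9KO arrays. For BioB, all 10 knockout arrays (361 to 444) lie above all 4 wild type arrays (314 to 354).

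Pooling the knockouts called few genes, and their changes were small. Of 12985 genes, 40 passed (0.308%), 23 higher (0.177%) and 17 lower (0.131%) in the knockouts, and 38 of them were genes other than Cd151 and Cd9. At an unadjusted p under 0.05 there were 2044 genes, 1165 higher (8.97%) and 879 lower (6.77%). Whatever their p, 6851 of all genes tested (52.8%) were higher and 6134 lower, the base for the list counts below. The median pooled difference over all genes was 0.0052. Among the 38, adjusted p ran from 0.0175 to 0.0479, the smallest change was 1.12-fold, and 1 gene, Eln, reached 1.5-fold. All 10 knockout arrays lay above all 4 wild type arrays for 71 genes (0.547%) and below them for 48 (0.370%), 119 in all (0.916%), and 26 of these also passed (18 higher, 8 lower).

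The count rested on few arrays, above all on single wild type ones. Without wild type array 1 there were 3 genes, without array 3 there were 11, and without array 4 the 2 left were Cd151 and Cd9. It was 23 without CD151KO array 4, 25 without CD151KO array 5, 99 without CD151KO array 1, 68 without CD9KO array 1, and 12 without both arrays that stood apart. None of the 38 reversed in any of 26 alternative fits, and none passed in all of them: a gene lost its call in 2 to 18, with a median of 6. Averaging all probe sets of each gene shrank the difference by over 1.5 times for 15 of them: Eln (0.38), Lipe (0.26), Per3 (-0.21), Parvb (0.15), Pfkl (0.14), Asap2 (0.13), Fndc4 (0.12), Mcm5 (-0.12), Mlec (0.11), Ahcyl2 (0.11), Pdia4 (0.080), Sike1 (-0.075), Prkci (-0.069), Htra3 (0.050) and Med15 (0.040). Gulp1 shrank to -0.19 without wild type array 1 and to -0.11 without array 3. The count of 119 was 270, 205, 192 and 268 without wild type arrays 1, 3, 4 and 5 and 199 without CD151KO array 1.

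CD151KO and CD9KO were also set against each other, a contrast that uses no wild type array. Between them 1313 genes differed (10.1%), 778 higher and 535 lower in CD151KO, with 698, 856 and 686 genes without CD151KO array 1, CD151KO array 2 and CD9KO array 5. Of the 38 genes, 11 (28.9%) were among the 1313, so their pooled difference averages unequal genotypes, and 27 did not pass between the knockouts. That a gene did not pass does not show that both genotypes had the same level.

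**Figure D2:**
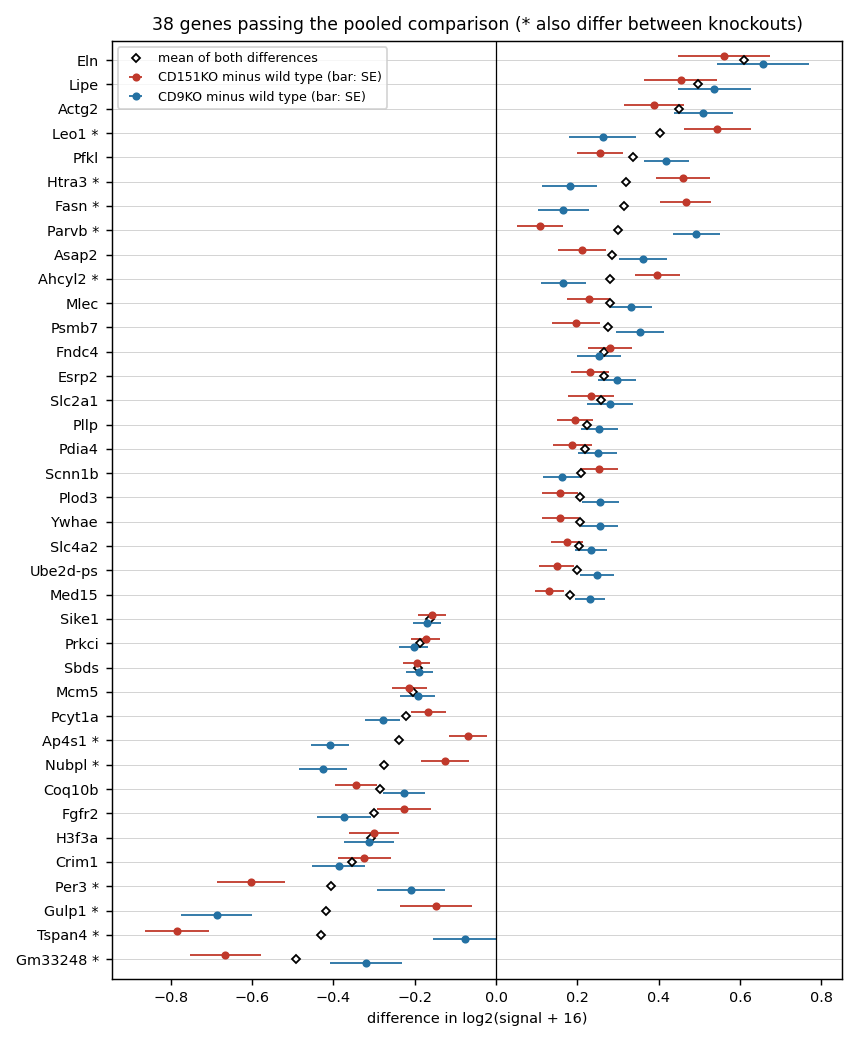
Difference from wild type in log2(signal + 16) for the 38 genes other than Cd151 and Cd9 that passed, shown for CD151KO (red) and CD9KO (blue) with the SE, and for their mean (open diamonds); an asterisk marks the 11 genes that also differed between the knockouts. Both genotypes lie on 1 side of 0 for every gene shown, from Eln (0.56 and 0.66) to Gm33248 (-0.67 and -0.32). The genes were chosen by the mean of both differences, and each difference subtracts the same wild type arrays. A shared side was thus favoured in advance and does not show a common effect of both knockouts. Tspan4 (-0.78 and -0.08) and Parvb (0.11 and 0.49) rest mostly on 1 genotype.

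Genes of elastic matrix and smooth muscle were among the largest rises. Eln encodes elastin, the stretchable core of elastic fibres in alveolar walls, airways and vessels. Its signals were 179.9, 166, 184 and 224 on the wild type arrays, 266, 228, 285, 302 and 353 on the CD151KO arrays and 278, 279.9, 314, 373 and 288 on the CD9KO arrays. Every knockout array lay above the highest wild type array, by the least on CD151KO array 2. Eln rose by a log2 of 0.61 (SE 0.10, 1.52-fold, adjusted p = 0.0197), with 0.56 in CD151KO and 0.66 in CD9KO. Its second probe set, with a wild type mean of 95.3, differed by 0.16 (unadjusted p = 0.0127).

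Actg2, the gamma actin of smooth muscle, is part of the contractile apparatus of airway and vessel walls. It gave 213, 235, 205 and 223 on the wild type arrays, 265, 290.4, 297, 290.1 and 315 on the CD151KO arrays and 367, 333, 299, 271 and 328 on the CD9KO arrays, without overlap. It rose by 0.45 (SE 0.064, 1.36-fold, adjusted p = 0.0175) and lost its call in only 2 of the 26 alternative fits, those without wild type array 1 or 4. No other gene of the 38 lost its call in so few.

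Plod3, a lysyl hydroxylase that modifies collagen in the endoplasmic reticulum, gave 498, 523, 546 and 557 in wild type and 566 to 679.5 in the knockouts, with a median of 622. It rose by 0.21 (SE 0.039, adjusted p = 0.0353). Htra3, a secreted serine protease, gave 191, 188, 197 and 183 in wild type, compared with 242, 245, 289, 269 and 293 in CD151KO and 243, 233, 214, 201 and 199 in CD9KO. All knockout arrays were above wild type, yet the genotypes were unequal (0.46 and 0.18; adjusted p between them 0.0140), and 2 other probe sets of Htra3, both weak, differed by -0.070 and -0.10.

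Around these 4 genes the matrix lists leaned upward without further calls. Of 13 elastic fibre and microfibril genes tested, 1 passed (Eln), 11 were higher, 6 of them at an unadjusted p under 0.05, and the median difference was 0.12 against 0.0052 for all genes. The members next to Eln were Mfap2, a microfibril protein (log2 0.19, adjusted p = 0.0921), Ltbp3 (0.14, 0.143) and Ltbp1 (0.17, 0.167), which hold latent TGF-beta in the matrix. Ltbp3 lay at 0.26 in CD151KO and 0.011 in CD9KO and differed between them (adjusted p = 0.00423).

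Among 13 collagen modifying enzymes 1 passed (Plod3), 4 were higher at an unadjusted p under 0.05 and the median was 0.076. Lox, the lysyl oxidase that crosslinks collagen and elastin, had all knockout arrays above wild type: 495, 484, 541 and 529 in wild type, then 550.3 to 1004, with a median of 702. Its difference of 0.47 (SE 0.11) did not pass (adjusted p = 0.0735), nor did that of Plod1 (0.27, 0.101). The 6 fibrillar collagens had a median of 0.12 that came from 1 genotype, with 0.27 in CD151KO and -0.10 in CD9KO. Col3a1 measured 2434 ± 314 in wild type, set beside 3572 ± 285 in CD151KO and 2294 ± 367 in CD9KO (SD; adjusted p between knockouts 0.00273).

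Of 18 basement membrane genes none passed, 7 were higher and 0 lower at an unadjusted p under 0.05, and the median was 0.037 (0.062 without wild type array 1). The genotypes were unlike here too: 17 members lay above 0 in CD151KO (median 0.092), and 9 lay below 0 in CD9KO (median -0.0099). Between the knockouts 4 differed, Lamb3 (0.14 and -0.20, adjusted p = 0.00584), Col4a4 (0.17 and -0.16, 0.00488), Lama3 (0.0224) and Col4a5 (0.0495), all higher in CD151KO. Col4a1 and Col4a2, the chains of the main basement membrane collagen, differed by 0.16 and 0.11 (adjusted p = 0.0967 and 0.0992). The laminin chain Lama5 (379, 391, 385 and 396 in wild type, 402 to 456 in the knockouts) did not overlap between groups, and its difference was 0.13 (adjusted p = 0.139).

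The partners of CD151 at that membrane, the laminin-binding integrins and hemidesmosome genes, were all higher. Of 7 tested, 7 were higher, 5 at an unadjusted p under 0.05, none passed, and the median was 0.16 (0.11 in CD151KO and 0.16 in CD9KO). Itga6, the integrin alpha 6 chain, measured 2430.1 ± 259.7 in wild type, compared with 2854 ± 390.4 in CD151KO and 3099 ± 188 in CD9KO, a difference of 0.29 (SE 0.079, adjusted p = 0.107). Itga3, the alpha 3 chain that pairs with CD151 in lung epithelium, differed by 0.13 (0.178), Dst by 0.16 (0.207) and Itgb4 by 0.16 (0.244). Plec differed by 0.083 (adjusted p = 0.500) and Itgb1 by 0.012 (0.874), with -0.00078 for Itgb1 in CD9KO. None of the 7 passed between the knockouts.

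In the smooth muscle list 1 of 15 genes passed (Actg2), 13 were higher, 7 of them at an unadjusted p under 0.05, and the median was 0.10. Myh11, the smooth muscle myosin heavy chain, gave 515, 535, 541 and 496 in wild type and 586 to 758 in the knockouts, again without overlap. Its difference of 0.27 (SE 0.058) and those of Cnn1 (0.36), Tpm2 (0.23) and Acta2 (0.23) did not pass (adjusted p = 0.0575, 0.0575, 0.0905 and 0.0937). No member differed between the knockouts.

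**Figure D3:**
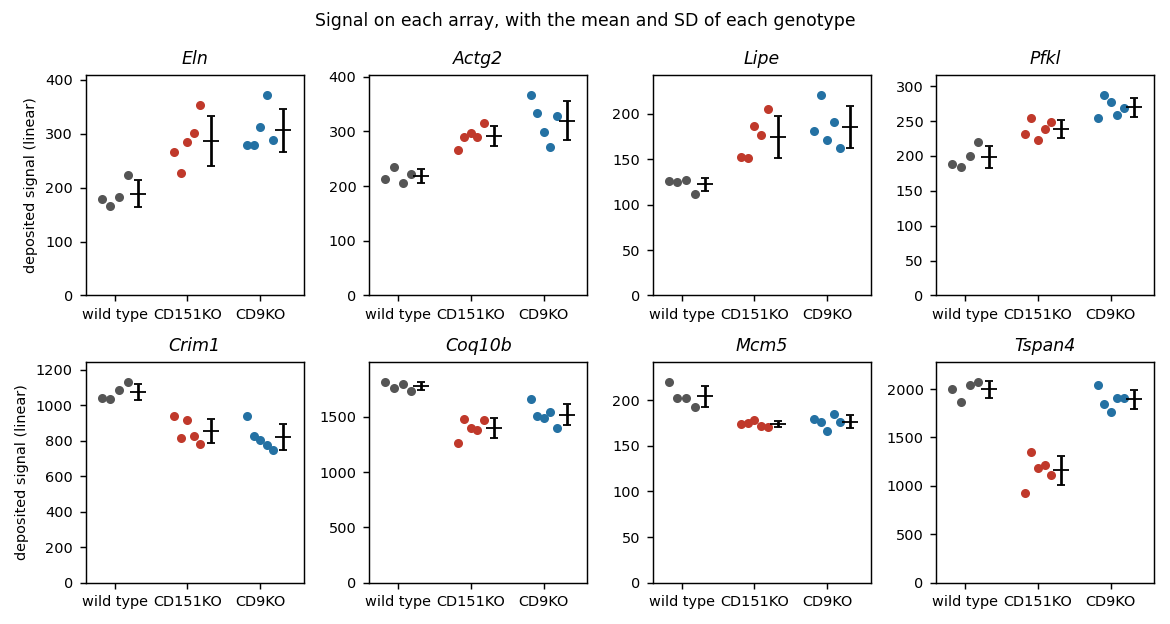
Deposited linear signal of 8 genes that passed, on every array, by genotype; black marks are the mean and SD of 4 wild type, 5 CD151KO and 5 CD9KO arrays, and each axis starts at 0. All 10 knockout arrays lie above wild type for Eln, Actg2, Lipe and Pfkl and below it for Crim1, Coq10b and Mcm5, while Tspan4 is low only in CD151KO (932 to 1350, against 1768 to 2074 elsewhere).

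Lipe, Pfkl, Slc2a1 and Fasn were among the rises. Lipe, the hormone-sensitive lipase that frees fatty acids from stored fat, gave 126, 125, 127 and 112 in wild type, set beside 152, 151, 187, 177 and 205 in CD151KO and 182, 221, 172, 191 and 162 in CD9KO. The groups did not overlap. Lipe rose by 0.50 (SE 0.080, 1.41-fold, adjusted p = 0.0197), with 0.45 in CD151KO and 0.54 in CD9KO (CD151KO minus CD9KO -0.083, SE 0.085). A second, weak probe set differed by 0.026.

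Pfkl, the liver type phosphofructokinase of glycolysis, gave 189, 184, 199.7 and 219 in wild type, compared with 231, 254, 223, 238 and 249 in CD151KO and 255, 288, 277, 259 and 269 in CD9KO. It rose by 0.34 (SE 0.049, 1.26-fold, adjusted p = 0.0175), with 0.13 and -0.059 at 2 other probe sets. Slc2a1, the glucose transporter GLUT1, rose by 0.26 (SE 0.050, adjusted p = 0.0424), from 452, 473, 467 and 437 in wild type to between 503 and 634. Its other probe sets differed by 0.26 and 0.14.

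Fasn, the fatty acid synthase, rose by 0.32 (SE 0.055, adjusted p = 0.0257), mainly in CD151KO. Its signals were 1599.9, 1847, 1599.9 and 1562 in wild type, set beside 2322, 2525, 2064, 2265 and 2261 in CD151KO and 1966, 1952, 1885, 1696 and 1769.5 in CD9KO, so 2 CD9KO arrays lay below wild type array 3. The genotypes differed (0.47 and 0.17, adjusted p = 0.00743). Of 16 fatty acid synthesis genes 1 passed, 5 were higher at an unadjusted p under 0.05, the median was 0.089, and 7 differed between the knockouts. Scd1, the stearoyl-CoA desaturase, differed by 0.34 (adjusted p = 0.121) and Agpat2 by 0.20 (0.0884), while 16 cholesterol genes had a median of 0.029. All 16 cholesterol genes were above 0 in CD151KO, and 12 were below 0 in CD9KO.

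Markers of fat lay higher beside Lipe and Fasn. Of 8 adipocyte genes tested all 8 were higher, beside 52.8% of all genes. At an unadjusted p under 0.05, 6 were higher, beside 8.97% of all genes. None passed, and the median was 0.29. Wild type array 1 was the lowest wild type array for 6 of the 8, and without it the median was 0.205. Adipoq, the hormone adiponectin, gave 244, 321, 328 and 279 in wild type, compared with 346, 583, 518, 373 and 469 in CD151KO and 601, 404, 560.0, 405 and 272 in CD9KO (difference 0.57, SE 0.17, adjusted p = 0.143), so that CD9KO array 5 lay within the wild type range. Fabp4 differed by 0.50 (0.183) and Plin4, a lipid droplet protein, by 0.31 (0.139). The mean log2 level of the list was 8.05 to 8.33 on wild type arrays, 8.14 to 8.67 on CD151KO arrays and 8.18 to 8.80 on CD9KO arrays, and no tested member was at 0. The part of this tissue in the rise of Lipe was not tested.

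Genes of cardiac muscle, which in mice also surrounds the pulmonary veins, gave higher values too. The tissue they came from was not tested. Of 18 cardiac genes all were higher, 12 at an unadjusted p under 0.05, none passed, and the median was 0.27, with 0.14 in CD151KO and 0.42 in CD9KO. Myh6, a cardiac myosin, gave 912, 1172, 1324 and 1035 in wild type, set beside 1044, 963, 1613, 1055 and 1684 in CD151KO and 1924, 1795, 2264, 1753 and 1484 in CD9KO. All CD9KO arrays lay above wild type and only 2 CD151KO arrays did (difference 0.44, adjusted p = 0.179). Casq2 differed by 0.26 (0.157) and Actn2 by 0.30 (0.178). Mean log2 levels of the list were 8.48 to 8.69 in wild type, 8.39 to 9.06 in CD151KO and 8.70 to 9.20 in CD9KO. The part of cardiac muscle in the other results was not tested either.

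Protein folding in the endoplasmic reticulum held as many genes higher at an unadjusted p under 0.05 as the cardiac list. Pdia4, a disulfide isomerase of that compartment, gave 742, 766, 752 and 782 in wild type and 834 to 966 in the knockouts, with a median of 873, and rose by 0.22 (SE 0.042, adjusted p = 0.0366). Its weak second probe set differed by -0.059. Of the 20 genes of the unfolded protein response 1 passed, 18 were higher, 12 at an unadjusted p under 0.05 and 2 lower, and the median was 0.13 (0.084 in CD151KO and 0.22 in CD9KO). Wild type array 1, which stood apart, was the lowest wild type array for 16 of the 20, with Hspa5, the chaperone BiP, at 4452 against 5636 to 6523 and Hsp90b1 at 3959.7 against 5150.3 to 5365 on the others. Without it the median was 0.093. Hyou1 (0.19, adjusted p = 0.0575), Pdia6 (0.27, 0.0986) and Calr (0.22, 0.0992) are chaperones or isomerases. Atf4, a transcription factor that drives the stress arm, was lower on every knockout array: 3241, 3074, 3171 and 3076 in wild type and 2626 to 2951 in the knockouts (difference -0.16, adjusted p = 0.0702).

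Mlec, or malectin, binds glucose-bearing sugar chains of new glycoproteins in the same compartment. It gave 435, 450.2, 492 and 490.3 in wild type and 498 to 618 in the knockouts, with a median of 573. It rose by 0.28 (SE 0.046, adjusted p = 0.0197), with 0.12, 0.11 and -0.056 at 3 other probe sets. Psmb7, a catalytic subunit of the proteasome, gave 768, 762, 728 and 732 in wild type, compared with 847, 864, 851, 907 and 828 in CD151KO and 1034, 893, 1092, 934 and 863 in CD9KO and rose by 0.28 (SE 0.052, adjusted p = 0.0347). Cytosolic heat shock genes, 16 in number, had 0 calls, 0 past an unadjusted p under 0.05 and a median of 0.17 that ran from -0.029 to 0.27 over the alternatives. Wild type array 1 was the lowest wild type array for all 16, and without it the median was -0.029.

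Esrp2, Slc4a2 and Scnn1b also rose. Esrp2 is a splicing regulator of epithelial cells. Its signals were 359, 347, 377 and 351 in wild type, set beside 424, 421, 389.6, 444 and 443 in CD151KO and 422, 429, 449, 456 and 469 in CD9KO, without overlap. It rose by 0.26 (SE 0.041, 1.20-fold, adjusted p = 0.0197), and its second probe set differed by 0.23 (unadjusted p = 0.00832). Slc4a2, an anion exchanger, gave 321, 333, 343 and 335 in wild type and 366 to 418 in the knockouts and rose by 0.20 (SE 0.034, adjusted p = 0.0229).

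Scnn1b, the beta subunit of the epithelial sodium channel that clears fluid from the airspace, gave 599, 639.5, 573 and 579.9 in wild type and 635 to 742 in the knockouts. It rose by 0.21 (adjusted p = 0.0479), the weakest call of the 40, and was lost in 18 of the 26 alternatives. The lung's epithelial cell lists stayed near all genes when the knockouts were pooled. The pooled medians were 0.033 for 15 type 2 genes, -0.022 for 12 type 1 genes and 0.033 for 12 club genes. They were 0.0060 for 17 ciliated genes and -0.00063 for 18 junction genes, with 0 calls in each list. At an unadjusted p under 0.05 these lists had 3, 0, 1, 1 and 0 genes higher and 0, 2, 0, 1 and 3 lower. The last 2 medians changed sign under some alternatives, that of the junctions also under another scaling. In some of these lists the genotypes lay apart. Above 0 in CD151KO were 12 type 2, 1 type 1, 9 club, 14 ciliated and 11 junction genes. Below 0 in CD9KO were 11, 6, 5, 15 and 9. Single junction genes did differ: F11r was lower on every knockout array (-0.087, adjusted p = 0.132). Cldn18 differed by 0.032, but another of its probe sets passed when limma tested every probe set (-0.42, adjusted p = 0.0365).

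The other rises had varied roles. Ahcyl2, a relative of S-adenosylhomocysteine hydrolase, rose by 0.28 (SE 0.049, adjusted p = 0.0257), with 1004, 1142, 1145 and 1128 in wild type, compared with 1337, 1497, 1366, 1528 and 1573 in CD151KO and 1168, 1205, 1287, 1305 and 1234 in CD9KO. The genotypes differed (0.40 and 0.17, adjusted p = 0.0138), and its 2 other probe sets differed by -0.0094 and 0.047. Fndc4, a small secreted or membrane protein, was weak, at 45.3, 46.5, 51.0 and 47.4 in wild type and 52.8 to 68.0 in the knockouts. It rose by 0.27 (adjusted p = 0.0280), with -0.027 at its other probe set.

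Leo1, a subunit of the Paf1 complex that travels with RNA polymerase, rose by 0.40 (adjusted p = 0.0290), more in CD151KO (0.54) than in CD9KO (0.26; adjusted p between them 0.0337). Ywhae, a 14-3-3 adaptor protein, rose by 0.21 (adjusted p = 0.0395), with 0.24, 0.19 and -0.0070 at 3 other probe sets. The remaining rises were Asap2 (0.29), Pllp (0.22), Med15 (0.18) and Ube2d-ps (0.20), at adjusted p of 0.0319, 0.0257, 0.0257 and 0.0330. Ube2d-ps is named as a pseudogene of a family with near-identical copies, so its probes may also read those, and it is uncertain.

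Among the falls, Crim1 was the largest with separate groups. Crim1 is a membrane protein with cysteine-rich repeats that binds bone morphogenetic proteins and growth factors. It gave 1044, 1033, 1084 and 1132 in wild type, set beside 937, 818, 917, 828 and 779.9 in CD151KO and 939, 829.5, 803, 775 and 749 in CD9KO. It fell by a log2 of 0.36 (SE 0.058, 1.28-fold, adjusted p = 0.0197), with -0.32 in CD151KO and -0.39 in CD9KO. Its weaker probe set measured 327 in wild type, compared with 274.5 in CD151KO and 323 in CD9KO, a difference of -0.14 (unadjusted p = 0.155).

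Crim1 was the only call among 6 antagonists of bone morphogenetic proteins, whose median was -0.092. Fstl1 was higher (0.14, adjusted p = 0.172) and Bmper lower (-0.23, 0.373). Fgfr2, the receptor through which fibroblast growth factors maintain lung epithelium, gave 2493, 2138, 1927 and 1933 in wild type, compared with 2015, 1732, 1778, 1778 and 1727 in CD151KO and 1624, 1643, 1682, 1572 and 1604 in CD9KO. It fell by 0.30 (SE 0.059, adjusted p = 0.0424), with -0.19 and -0.45 at its other probe sets, and all CD9KO arrays lay below wild type while CD151KO array 1 did not. The 17 TGF-beta and 17 Wnt pathway genes had 0 calls and medians of -0.029 and -0.0027, both changing sign under some alternatives.

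H3f3a, a gene of histone H3.3, fell by 0.31 (SE 0.054, 1.24-fold, adjusted p = 0.0257), from 230.0, 195, 219 and 206 in wild type to between 150.3 and 185. Its transcript has close relatives, so the probe set may not be specific and the gene is uncertain. Mcm5, a subunit of the helicase that opens DNA for replication, gave 220.0, 202, 202 and 192 in wild type and 167 to 185 in the knockouts, without overlap. It fell by 0.20 (SE 0.038, adjusted p = 0.0330), with -0.21 in CD151KO and -0.19 in CD9KO, and a weaker probe set differed by -0.16.

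Of 18 cell cycle genes 1 passed (Mcm5), 16 were lower, 2 of them at an unadjusted p under 0.05, and the median was -0.061. Mcm4 differed by -0.085 (adjusted p = 0.234), Mcm2 by -0.088 (0.432) and Ccna2, a cyclin, by -0.11 (0.437).

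Pcyt1a, the rate-setting enzyme of phosphatidylcholine synthesis, the main lipid of surfactant, gave 1069, 951, 962 and 898 in wild type, set beside 884, 851, 842, 876 and 852 in CD151KO and 812, 807, 769, 788 and 803 in CD9KO. It fell by 0.22 (SE 0.038, adjusted p = 0.0253), with -0.22, -0.10 and -0.23 at 3 other probe sets. Sbds, a factor in the maturation of ribosomes, gave 1599, 1589, 1610.5 and 1555 in wild type and 1324 to 1458 in the knockouts and fell by 0.19 (SE 0.029, adjusted p = 0.0197).

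Prkci, an atypical protein kinase C that sets the polarity of epithelial cells, gave 3613, 3373, 3277 and 3302 in wild type and 2845 to 3111 in the knockouts. It fell by 0.19 (SE 0.031, adjusted p = 0.0217), while a weak second probe set differed by 0.050. Sike1, an inhibitor of interferon induction through IKK epsilon and TBK1, fell by 0.16 (SE 0.031, 1.12-fold, adjusted p = 0.0330), from 715, 690.2, 673 and 662 in wild type to between 591 and 635. Its other probe sets differed by -0.17 to 0.060. The 17 interferon-stimulated genes had 0 calls, 0 genes past an unadjusted p under 0.05 in either direction, and a median of -0.026 (0.024 without wild type array 1).

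Coq10b, which binds coenzyme Q in mitochondria, fell with both of its probe sets lower. It gave 1817, 1766, 1796 and 1736 in wild type, compared with 1261, 1483, 1399, 1383 and 1471 in CD151KO and 1659, 1509.6, 1495, 1542 and 1399 in CD9KO. The groups did not overlap. Its log2 difference was -0.29 (SE 0.045, 1.22-fold, adjusted p = 0.0197), with -0.32 at a second probe set (unadjusted p = 1.73e-05). It was the only call among 10 coenzyme Q genes, whose median was 0.0095; Coq9 differed by 0.10 (adjusted p = 0.204) and Coq7 by -0.13 (0.255).

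Promoters were read for 31 of the 38 genes (41 windows of 300 bases, from 250 before to 50 after a transcript start) in a RefSeq table of build GRCm38.p6. Both strands were searched for the E-box CACGTG, bound by clock activators Arntl and Clock, and the D-box TTATGTAA, bound by the clock output factors. They were also searched for the endoplasmic reticulum stress element (CCAAT, then 9 bases of any kind, then CCACG). The E-box was in promoters of 5 genes (Coq10b, Fgfr2, Lipe, Nubpl and Tspan4), in 1 window each, so in 12.2% of the 41 windows, against 9.49% of the 13398 windows of tested genes and 7.15% of all 32851 windows. The D-box was in 2 of the 41 windows (4.88%; Coq10b and Per3), against 0.530% of windows of tested genes and 0.938% of all. The stress element was in 0 of the 41 and in 0.119% of all windows. Per3 had 2 D-boxes, and 7 of all windows had at least 2 (0.0213%), its own included. A match is a description of letters, not a binding site. The 250 bases before the start are shown for 3 genes that hold these motifs, 5' to 3' on the gene's strand, with matches in capitals: D-boxes 205 and 158 bases before the start of Per3, a D-box on the other strand at 162 and an E-box at 78 before that of Coq10b, and an E-box at 155 before that of Lipe, with 0 overlapping matches.
Per3 (chr4:151044666-151044915, minus strand): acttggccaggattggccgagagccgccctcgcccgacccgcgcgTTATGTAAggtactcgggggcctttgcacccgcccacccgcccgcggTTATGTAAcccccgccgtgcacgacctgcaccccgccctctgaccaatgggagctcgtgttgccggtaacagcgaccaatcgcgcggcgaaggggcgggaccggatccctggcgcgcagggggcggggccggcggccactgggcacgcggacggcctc
Coq10b (chr1:55052520-55052769, plus strand): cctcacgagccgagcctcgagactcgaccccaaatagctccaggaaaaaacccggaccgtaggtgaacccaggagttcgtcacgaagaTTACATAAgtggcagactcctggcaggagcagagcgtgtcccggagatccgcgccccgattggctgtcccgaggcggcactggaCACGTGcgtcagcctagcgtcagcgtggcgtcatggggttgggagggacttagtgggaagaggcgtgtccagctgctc
Lipe (chr7:25395988-25396237, minus strand): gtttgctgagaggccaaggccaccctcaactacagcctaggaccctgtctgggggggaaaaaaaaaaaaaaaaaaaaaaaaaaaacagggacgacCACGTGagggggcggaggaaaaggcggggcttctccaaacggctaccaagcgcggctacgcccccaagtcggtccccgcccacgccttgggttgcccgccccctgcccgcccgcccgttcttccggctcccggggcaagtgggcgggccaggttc

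Per3 was the clock gene that passed at its brightest probe set. The circadian clock is a loop in which Arntl (BMAL1) and Clock switch on the Per, Cry and Nr1d genes, whose products then hold the activators down; Dbp, Hlf and Tef carry the rhythm to D-boxes of other genes. Per3 gave 1194, 872, 992 and 1016 in wild type, set beside 582, 635, 697, 713 and 686 in CD151KO and 918, 941, 917, 778 and 826 in CD9KO. All CD151KO arrays and 2 CD9KO arrays lay below the wild type range. It fell by 0.41 (SE 0.074, 1.32-fold, adjusted p = 0.0307), with -0.60 in CD151KO and -0.21 in CD9KO, which differed (adjusted p = 0.00780). Its 5 other probe sets differed by -0.079 to -0.32.

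Of the 3 activators tested, Arntl and Clock were higher in CD151KO than in wild type and Rora was lower. None passed at its brightest probe set in the pooled comparison. Arntl gave 62.3, 72.6, 78.9 and 71.1 in wild type, compared with 244, 209, 113, 137 and 185 in CD151KO and 70.8, 82.1, 73.5, 62.3 and 73.2 in CD9KO. All CD151KO arrays were above all others, and CD9KO overlapped wild type, so the pooled difference of 0.56 (SE 0.14, adjusted p = 0.0857) joins 1.11 and 0.018 (adjusted p between them 0.00108). Clock measured 435 ± 88.0, 599 ± 18.5 and 495 ± 24.4 in wild type, CD151KO and CD9KO (difference 0.34, adjusted p = 0.102), with wild type array 1 lowest at 305. When limma tested every probe set, another one of Clock passed (0.31, adjusted p = 0.0305), with 0.41 in CD151KO and 0.22 in CD9KO. Rora, an activator of Arntl, differed by -0.055 (adjusted p = 0.691), with -0.17 in CD151KO and 0.060 in CD9KO (adjusted p between them 0.0407).

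Among 10 repressors 1 passed (Per3), 9 were lower, 3 of them at an unadjusted p under 0.05, and the median of -0.15 split into -0.32 in CD151KO and 0.029 in CD9KO. Per1 differed by -0.17 (adjusted p = 0.228), Per2 by -0.30 (0.462), Cry1 by -0.23 (0.536) and Cry2 by 0.014 (0.964). The knockouts differed in Cry1: 149, 298, 199, 279 and 252 in CD151KO and 474, 426, 454, 531 and 493 in CD9KO did not overlap, with 277, 312, 509.6 and 518 in wild type (adjusted p between the knockouts 0.00537), and 4 of the 5 CD9KO arrays lay within the wild type range. Ciart (-0.21, 0.346) and Nr1d2 (-0.12, 0.285) were also lower in CD151KO than in CD9KO (adjusted p = 0.00145 and 0.00146), while Nr1d1 (-0.034), Bhlhe40 (-0.066) and Bhlhe41 (-0.050) did not pass in either contrast.

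The output factors Hlf and Tef were lower mainly in CD151KO, like the repressors, while Dbp was lower in both genotypes (-0.86 in CD151KO and -0.36 in CD9KO). Dbp gave 3636, 2486, 2001 and 1997 in wild type, set beside 1435, 1123, 1351, 1551 and 1311 in CD151KO and 2399, 1923, 1997, 1582 and 1739.5 in CD9KO (difference -0.61, SE 0.14, adjusted p = 0.0733); wild type array 1 was the highest of all. Hlf (-0.36, 0.0633) and Tef (-0.20, 0.138) did not pass and were lower in CD151KO than in CD9KO (adjusted p = 0.00181 and 0.000915). Another probe set of Hlf passed when limma tested every probe set (-0.40, adjusted p = 0.0385), with -0.69 in CD151KO and -0.11 in CD9KO. Nfil3, which represses the same D-boxes, was higher (0.26, 0.257). The sources used here do not give the hour at which tissue was collected. Of the 17 clock genes tested 12 differed between the knockouts, beside 10.1% of all genes.

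**Figure D4:**
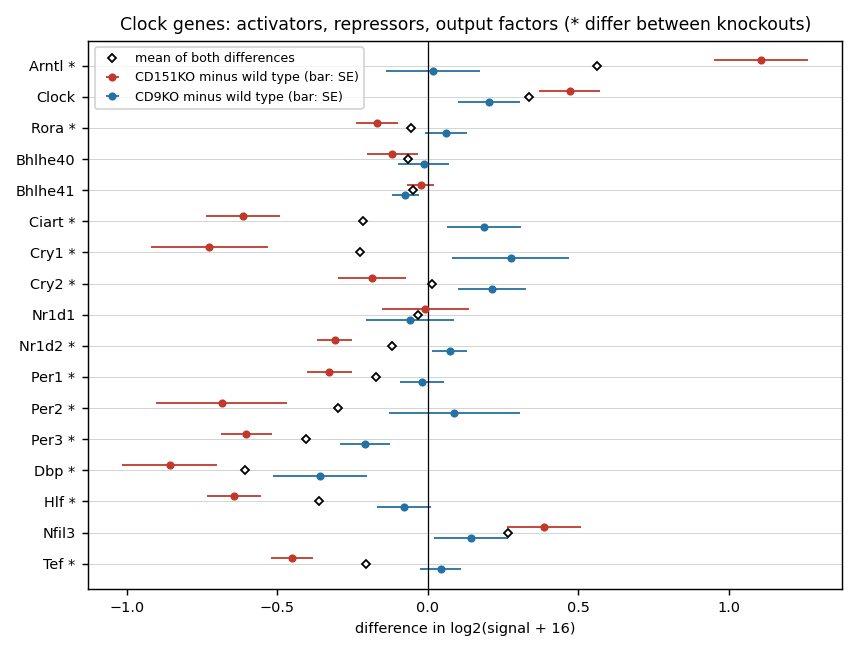
Difference from wild type in log2(signal + 16) of 17 clock genes, grouped as activators, repressors and output factors, for CD151KO (red) and CD9KO (blue) with the SE and for their mean (open diamonds); an asterisk marks genes that differed between the knockouts. CD151KO points of Arntl (1.11), Dbp (-0.86) and Cry1 (-0.73) lie far from 0, and 12 of the 17 genes carry an asterisk, so that their pooled values are averages of unlike genotypes.

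A group of falls came mostly from 1 genotype. Tspan4, a tetraspanin with 1 protein-coding gene between it and Cd151 on chromosome 7, gave 2001, 1865, 2042 and 2074 in wild type, compared with 932, 1349.8, 1183, 1219.5 and 1112 in CD151KO and 2038, 1849, 1768, 1903 and 1906 in CD9KO. Only the CD151KO arrays were low. Its pooled difference of -0.43 (SE 0.070, adjusted p = 0.0197) is the mean of -0.78 and -0.076, which differed (adjusted p = 0.000156). Of 25 tetraspanins other than CD151 and CD9, Tspan4 was the only call and the median was -0.0061; Tspan11 differed by 0.23 (adjusted p = 0.152) and Cd82 by -0.13 (0.170).

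Within 20 Mb of Cd151, 4 of 246 genes passed (1.63%, against 0.308% of all genes): Tspan4, Scnn1b, Fgfr2 and Gm33248, a long noncoding RNA. Fgfr2, Gm33248 and Scnn1b start 11.3, 11.8 and 19.6 Mb from Cd151, with 145, 146 and 283 protein-coding genes between. Fgfr2 (-0.23 in CD151KO and -0.37 in CD9KO) and Scnn1b, a rise (0.25 and 0.16), did not pass between the knockouts. Gm33248 gave 97.1, 135, 126 and 139.6 in wild type, set beside 80.3, 71.8, 76.3, 68.3 and 63.3 in CD151KO and 98.5, 106, 86.9, 87.7 and 99.8 in CD9KO, fell by 0.49 (SE 0.078, adjusted p = 0.0197) and differed between the knockouts (adjusted p = 0.0187). Near Cd9, on chromosome 6, 0 of 231 passed. Between the knockouts 12.6% of genes near Cd151 and 11.3% near Cd9 differed, against 10.1% of all genes. Whether DNA around a targeted gene came from another strain was not tested.

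The other calls of this kind came mostly from CD9KO. Ap4s1, a subunit of the adaptor complex AP-4, gave 1139, 1053, 985 and 967 in wild type, compared with 994, 979.6, 933, 988 and 1032 in CD151KO and 783, 758, 809, 775 and 753 in CD9KO (-0.069 and -0.41, adjusted p between them 0.000915). Nubpl, which assembles iron-sulfur clusters into mitochondrial complex I, has 5 protein-coding genes between it and Ap4s1 on chromosome 12. It gave 388, 364, 366 and 322 in wild type, set beside 325, 317, 342, 325 and 332 in CD151KO and 270.4, 255, 272, 288 and 236 in CD9KO (-0.13 and -0.43, 0.00537). In both genes every CD9KO array was below every other array.

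Gulp1, an adaptor for the engulfment of dying cells, gave 701, 655, 599 and 525 in wild type, compared with 635, 531, 564, 496 and 556 in CD151KO and 434, 382, 350.0, 385 and 339.6 in CD9KO, again with CD9KO below all others (-0.15 and -0.69, adjusted p between them 0.00197). Parvb, an integrin-linked adaptor, was the rise of this kind: 409.9, 402, 448 and 465 in wild type, set beside 419, 457, 458, 522 and 477 in CD151KO and 613, 599.8, 600.3, 613 and 635 in CD9KO (0.11 and 0.49, 0.00136). Its second, weak probe set differed by -0.0072. Pooled, the 4 genes passed with -0.24, -0.28, -0.42 and 0.30 (adjusted p = 0.0257, 0.0330, 0.0330 and 0.0217).

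Immune cells gave no pooled call. Lists for 7 neutrophil, 15 macrophage, 10 B and plasma cell, 13 T and NK cell and 10 MHC class II genes had 0 genes past an unadjusted p under 0.05 in either direction. For neutrophils the pooled median of 0.056 joined 0.39 in CD151KO and -0.40 in CD9KO, and 5 of the 7 differed between the knockouts. The pooled median changed sign under 5 alternatives and was 0.20 without wild type array 1. S100a8, a neutrophil granule protein, gave 2588, 1319, 956 and 1185 in wild type, compared with 5362, 4647, 2272, 1545 and 1612 in CD151KO and 784, 941, 703, 958 and 1009.9 in CD9KO (CD151KO minus CD9KO 1.61, adjusted p = 0.00926).

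**Figure D5:**
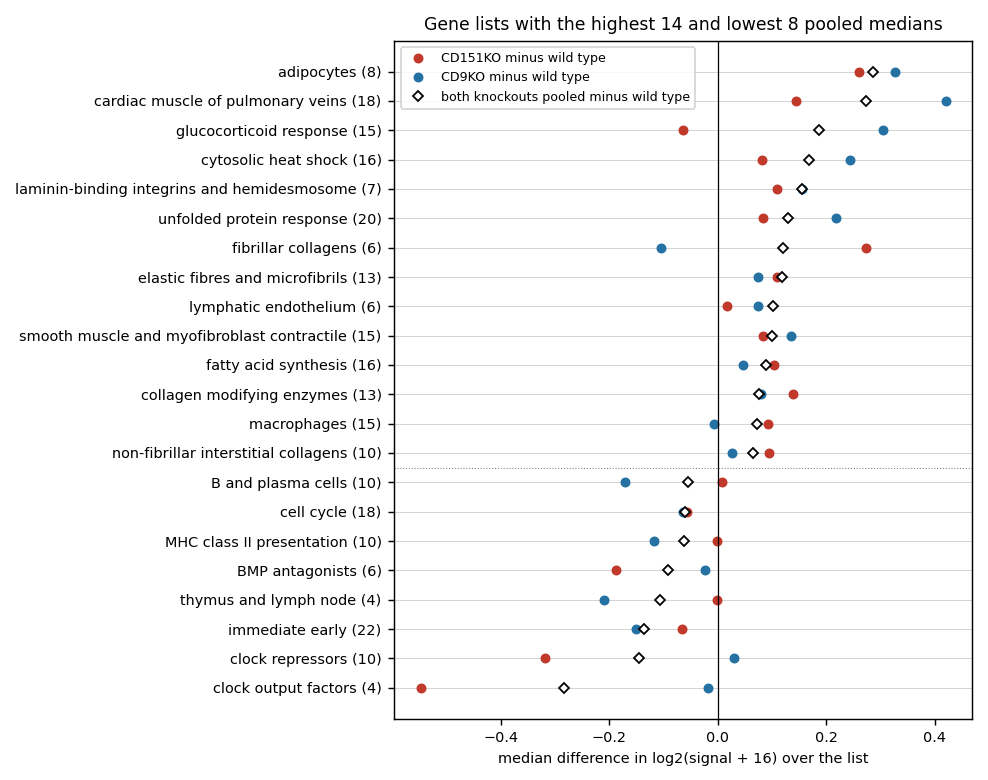
Median difference from wild type in log2(signal + 16) over the tested genes of the 14 gene lists with the highest and the 8 with the lowest pooled medians (number of genes in parentheses), pooled (open diamonds) and for each knockout. Adipocyte genes (0.26 and 0.33) lie above 0 in both genotypes, while clock repressors (-0.32 and 0.029), fibrillar collagens (0.27 and -0.10) and glucocorticoid response genes (-0.064 and 0.31) divide the genotypes. Both genotypes are set against the same wild type arrays, and the lists were chosen by pooled median, which favours a shared side.

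Immediate early genes, which respond within minutes to handling and stress, were lower on balance: of 22, 17 were lower, 5 at an unadjusted p under 0.05 against 1 higher, none passed, and the median was -0.14. Wild type array 1, which stood apart, was the highest of the 4 wild type arrays for 16 of the 22, and without it the median was -0.024. For Nr4a1, a nuclear receptor of this class, it gave 2599 against 588 to 880.2 on the others, and for Egr1 2160.4 against 566 to 868. Klf6 differed by -0.17 (adjusted p = 0.0733), Klf4 by -0.13 (0.165), Fosl2 by -0.22 (0.190) and Atf3 by -0.38 (0.271). Of 15 glucocorticoid response genes 12 were higher, none passed, and the median of 0.19 came from CD9KO (0.31, against -0.064 in CD151KO). It was 0.042 without wild type array 1, the lowest wild type array for 10 of the 15. Cdkn1a, the cell cycle inhibitor p21, was measured at 784 ± 246 in wild type, set beside 1353 ± 492 in CD151KO and 1279.7 ± 222 in CD9KO (difference 0.75, SE 0.24, adjusted p = 0.163). Genes of ribosomal proteins (14 of 15 lower, median -0.030) and of oxidative phosphorylation (20 of 25 lower, median -0.025) had 0 calls and small differences, and without wild type array 1 these medians were -0.014 and 0.0026. The lean was that of CD9KO, where 14 and 23 of these genes were below 0. In CD151KO 9 and 16 were above 0.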

How the data were processed

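Whole lung RNA of 4 wild type, 5 CD151KO and 5 CD9KO samples was measured on Affymetrix arrays. The deposited values are intensities of 45101 probe sets on a linear scale, normalized by the authors per the labels; per the submitters' processing notes, the tools included MAS5 and Affymetrix Expression Console, with no role stated, and the sources used here do not settle the summary method. Gene symbols came from GEO's annotation of the platform (34958 with 1 symbol, 932 with several, 9211 with none), and 34741 of the 34945 used matched a RefSeq table. A gene was its probe set with the highest mean. Genes below the 40th percentile (signal 53.4) were left out. limma 3.58.1 in R 4.3.3 fitted 3 groups to log2(signal + 16) on 14 arrays (11 residual degrees of freedom) and tested the mean of both knockouts against wild type, and CD151KO against CD9KO, two-sided, with no further normalization. The procedure was tested on simulated data. The number of arrays limits the precision. Array measures had exact permutation tests in Python 3.11.15 with SciPy 1.17.1, and figures were drawn with matplotlib 3.10.9.

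The members, the 52 gene lists and the rules were chosen with earlier results of these data known. The text names both targeted genes, the 10 largest changes in each direction among genes that passed with groups apart (8 falls existed), the 5 that passed with the smallest p between knockouts, up to 4 members per list by unadjusted p, and the clock genes; other genes that passed are named to complete the set of 38, and a few list members were named after their values were seen. Of 828 list entries, 695 were tested. Alternatives are given below.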

Additional observations from a re-analysis of the deposited data

Results flagged for a closer look

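In 9 of 144 groups of 4 or 5 arrays tested (6.25%), 1 array lay far from the others of its genotype by Dixon's criterion; chance marks about 1 in 20. Wild type arrays were concerned for Lipe (111.8 on array 5, others 125.1 to 127.0), Fasn (1847 on array 3, others 1562 to 1600.0) and Ahcyl2 (1004 on array 1, others 1128 to 1145). CD151KO arrays were concerned for Fndc4 (57.4 on array 3, others 61.3 to 62.9), Slc2a1 (585.5 on array 2, others 520.0 to 537), Pdia4 (952.5 on array 5, others 834 to 866), Fgfr2 (2015 on array 1, others 1727 to 1778) and Cd151 (1027 on array 3, others 1061 to 1072). On CD9KO array 2, Plod3 was 679.5, with the others at 621.5 to 638. No array was named more than 2 times.

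For 13 genes of the pooled comparison the knockouts differed by limma's test. CD151KO minus CD9KO, in log2(signal + 16), was 0.28 for Leo1, 0.28 for Htra3, 0.30 for Fasn, -0.38 for Parvb, 0.23 for Ahcyl2, 0.34 for Ap4s1, 0.30 for Nubpl, -0.39 for Per3, 0.54 for Gulp1, -0.71 for Tspan4 and -0.34 for Gm33248. For the targeted genes it was -2.22 (Cd151) and 3.60 (Cd9).

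Probe sets without a single gene symbol were outside the comparisons. When every probe set other than controls was tested, 27 of them passed, 26 lower and 1 higher in the knockouts. In that run 173 of 27022 probe sets passed, 62 higher and 111 lower. When only probe sets with 1 symbol were tested, 156 of 22951 passed, 65 higher and 91 lower.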

How the results depend on the processing

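The pooled count of 40 genes was 67 with a filter at the 60th percentile, 337 with array weights, 9 with the 10 knockout arrays as 1 group, where Cd151 and Cd9 themselves no longer passed, and 12 without arrays 1 of wild type and CD151KO. Testing every probe set with 1 symbol gave 156, and every probe set other than controls, an alternative chosen after seeing the data, 173. Leaving out 1 array gave 2 to 99, and the replicate block gave 261. Same-numbered samples deviated together in only some pairs (6 of 13 correlations over 0.1), and the main fit did not pair them. Between wild type and CD151KO the correlations were 0.59, -0.13, 0.45 and 0.26 for numbers 1, 3, 4 and 5. Whether the numbers stand for something these arrays shared was not tested. Pseudocounts of 1 and 64, quantile normalization, median centring, no filter, the mean of probe sets and no trend gave 34 to 50. The 119 genes with separate groups were 293 over every probe set with 1 symbol, 372 without both arrays 1, and 129 to 270 without 1 array, since fewer arrays must be cleared. The 1313 genes between the knockouts were 686 to 1941 without 1 array. Apart from these constructions the cause was not tested.

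Of the 38 genes, 38 passed with array weights, 37 with quantile normalization, 37 with median centring, 32 with no filter, 18 with the mean of probe sets, 9 with 2 groups and 9 without both arrays 1. Across all lists and alternatives, 1288 medians stayed within the spread between arrays and 8 moved further. With signals near the background, fold changes of weak genes such as Fndc4 are limited.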

Other observations

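Testing each probe set with limma added 89 genes to the gene-level calls, 32 higher and 57 lower in the knockouts. In that run 173 of 27022 probe sets passed, 62 higher and 111 lower. The examples that follow were chosen after their values were seen and rest on probe sets other than the brightest of the gene or on a changed multiple testing burden. A probe set of Lox, the enzyme that crosslinks elastin and collagen, was higher by a log2 of 0.74 (adjusted p = 0.0384), with 0.68 in CD151KO and 0.81 in CD9KO. Mfsd2a, a lipid transporter, was higher by 0.61 (0.0365) and Col4a1 by 0.26 (0.0215).

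Lower probe sets included 2 of Klf6 (-0.44 and -0.22, adjusted p = 0.0215 each), 2 of Bdnf, a neurotrophin (-0.52 and -0.42), 1 of Kitl, the ligand of the receptor Kit (-0.39), and 1 of Ednrb, the endothelin receptor B (-0.59). The nuclear noncoding RNA Malat1 was lower at 2 probe sets (-0.54 and -0.68). Sf3b1 (-0.29), Pnn (-0.31), Bclaf1 (-0.37), Rbm25 (-0.24) and Luc7l3 (-0.26), which act in splicing or with the splicing machinery, were lower at 1 probe set each. The list of splicing factors chosen for the gene-level comparison had 0 calls among 24 genes and a median of -0.016.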
